A study of Mus musculus with 2 samples.

Results

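Cells that carry *Elfn1*, *Epha6* and *Sertm1* together, outside the pallium for the most part, made up 147 of the 55231 cells kept in the control section and 263 of the 101250 kept in the *Dnmt1* KO section. They were chosen by their own counts: a member has at least 20 panel transcripts, at least 3 transcripts of the 3 genes together, at least 3% of its panel transcripts in these genes, at least 2 of the 3 genes above 0, fewer than 2 *Sst* transcripts, and more transcripts of the 3 genes than of *Irs4*, *Calcr* and *Baiap3*. The levels of these 7 genes in the members are therefore a description of the choice and not a result. The cells were measured by MERFISH, which reads single RNA molecules in tissue as fluorescent barcodes, with a panel of 500 neural genes and 50 blank barcodes that code for no gene.

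The control was an E16.5 mouse head with the alleles Sst-Cre and tdTomato, a red reporter that Cre switches on. The KO carried the same alleles and, in addition, *Dnmt1* loxP2, so that Cre removes a part of *Dnmt1* in cells with a history of *Sst* expression. Each genotype was 1 coronal section of 10 µm from 1 run, so section, animal, run and genotype cannot be told apart, no test was possible, and the exact 95% intervals given below cover counting error only. Cre in both groups is driven by *Sst*, members were required to carry almost no *Sst*, and *Dnmt1* and tdTomato were not on the panel, so whether any member was recombined was not measured.

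*Elfn1* encodes a leucine-rich repeat protein of the postsynaptic membrane that binds metabotropic glutamate receptors across the synapse and is best known from somatostatin interneurons. *Epha6* encodes an Eph receptor tyrosine kinase of axon guidance, and *Sertm1* a small membrane protein whose function is little studied. The ventral telencephalon produces GABA neurons, of which those from the medial ganglionic eminence (MGE) express the LIM homeodomain factor *Lhx6*. Some migrate into the cortex and others stay in the basal forebrain. DNMT1 copies DNA methylation after replication and is also present in young neurons.

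The sections differed in depth, and this shaped the choice. The segmented cells numbered 108533 in the control and 110004 in the KO, with 2842355 and 13437174 panel transcripts, and blank barcodes took 0.496% and 0.486% of all transcripts. A member held a median of 60 transcripts in the control (range 20 to 250) and 132 in the KO (range 31 to 426), against 34 and 109 in all kept cells. Median member volume was 1565 in the control and 936 in the KO, in the file's own unit, against 1234 and 874 in other cells. Signal of the nuclear stain DAPI per volume was 0.682 times and 0.674 times that of other cells, a like value in both sections. The sections shared 0 cell identifiers.

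*Elfn1* contributed 266 of the 531 rule transcripts in control members and 815 of 1624 in KO members. It was present in 128 of 147 and 234 of 263 members. *Epha6* contributed 138 and 372 transcripts, in 99 and 192 members. *Sertm1* contributed 127 and 437, in 93 and 203 members. All 3 genes were seen in 26 control members (17.7%) and 103 KO members (39.2%). The most frequent pair in the control was *Elfn1* with *Epha6* (54 members), and in the KO *Elfn1* with *Sertm1* (71 members).

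Different limits bound in the 2 sections. In the control 95 members (64.6%) had a sum of exactly 3, the lowest allowed, and their 3 genes took a median of 5.56% of transcripts. In the KO 52 members (19.8%) had exactly 3, 174 (66.2%) had 5 or more, and the median share was 3.97%, close to the limit of 3%. Just outside the count limit lay 161 control cells and 32 KO cells with a sum of 2, otherwise as members, of which 134 and 24 were at the same lateral position outside the pallium as most members. Just outside the share limit lay 12 control cells and 332 KO cells with 2% to 3%, more KO cells than there were KO members. In 11 control and 22 KO cells only an *Sst* count of 2 or more kept them out, and 0 cells were kept out by *Irs4*, *Calcr* and *Baiap3*. Control members were thus mainly limited by the count and KO members by the share.

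**Figure D1:**
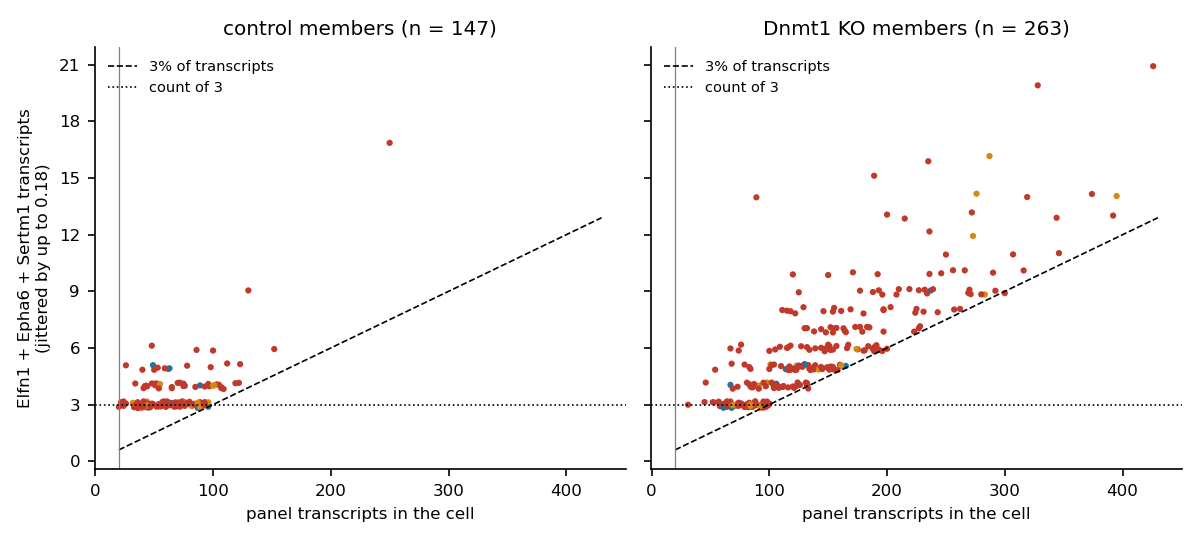
Transcripts of *Elfn1*, *Epha6* and *Sertm1* together (vertical axis, counts) against all panel transcripts of the cell (horizontal axis, counts) for each member, coloured by position: red, lateral outside the pallium; blue, medial; orange, lateral pallial. Points are shifted slightly to show overlaps, and the grey vertical line marks 20 transcripts. The dotted line marks 3 counts and the dashed line 3% of transcripts; 95 of 147 control members lie on the dotted line and 52 of 263 KO members do.

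Members were 0.266% of kept cells in the control (0.225 to 0.313) and 0.260% in the KO (0.229 to 0.293). The log2 ratio of KO over control was -0.04 (-0.45 to 0.38), so the shares did not differ beyond counting error at these settings. The settings decided this value. Raising the sum to at least 4 gave 1.15, and raising the share to at least 5% gave -1.67. After KO cells were thinned at random to the depth of the control, 84 of 60587 cells were members (0.139%) and the log2 ratio was -0.94. Counted over all decoded molecules, in cells or not, the 3 genes took 2050 per 1000000 molecules in the control (2003 to 2098) and 1622 in the KO (1602 to 1641), a log2 ratio of -0.34. *Elfn1* was at 1108 and 682 per 1000000 molecules, whereas *Sertm1* was at 415 and 433 with overlapping intervals. No direction for the number of these cells between the genotypes can be read from such values.

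The same rule was applied to cells of other types. Among cells marked by the microglial genes *Csf1r*, *Cx3cr1* and *C1qa*, which should lack the 3 genes, 1 of 760 control cells and 2 of 1516 KO cells met it (0.132% in each section). Among cells with endothelial markers 0 of 1603 and 1 of 4421 did, and among cells with connective tissue markers 0 of 7011 and 0 of 15130, which allows at most 0.0526% and 0.0244%. The exact intervals of the microglial shares, 0.00333% to 0.731% and 0.0160% to 0.476%, include the overall shares of members. The microglial cells thus set no lower background than the share itself. The intervals of the endothelial and connective tissue cells lie below the share of members in their section. For control endothelial cells the upper limit, 0.230%, still lies within the counting interval of that share, 0.225% to 0.313%.

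In both sections most members lay in a ventrolateral band on both sides of the midline. No outline of the telencephalon was measured. For this description the midline of each section was found by reflection, a member within 500 µm of it was called medial, and a cell was in a pallial neighbourhood where the pallial genes *Tbr1*, *Fezf2*, *Slc17a7*, *Eomes* and *Cux2* outnumbered 12 subpallial genes such as *Gad1*, *Meis2* and *Lhx6* in the summed transcripts of its 50 nearest cells, itself left out. At the lateral position outside the pallium lay 120 of 147 control members (81.6%, 74.4 to 87.5) and 234 of 263 KO members (89.0%, 84.5 to 92.5). Of the other kept cells, which include tissue outside the brain, 55.6% and 59.4% lay there.

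In the control the members of the band lay a median of 1094 µm from the midline in the hemisphere with more kept cells (quartiles 937 and 1268) and 1397 µm in the other (1260 and 1600). In the KO the medians were 1245 and 1111 µm. The median distance from a member to the nearest other member was 31.9 µm in the control and 20.9 µm in the KO, and members made up 4.05% and 6.98% of the 20 nearest cells of a member, which is 15.2 times and 26.9 times their overall share. In the control, 88.5% of members with a sum of 4 or more and 70.5% of those with exactly 3 had a member within 50 µm, against 6.68% of all other kept cells. In the KO these values were 89.1%, 75.0% and 5.66%. Cells one count short, with a sum of 2, were also near members, 59.0% and 50% of them.

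The hemispheres of 1 section were unequal. In the control they held 106 and 41 members, 0.325% (0.266 to 0.393) and 0.181% (0.130 to 0.246) of their kept cells, with intervals that did not overlap. In the KO they held 122 and 141, 0.233% (0.194 to 0.279) and 0.288% (0.242 to 0.339), with intervals that overlapped. The band held 80 and 40 members in the control hemispheres (0.245% and 0.177% of their kept cells, with overlapping intervals) and 112 and 122 in the KO (0.214% and 0.249%). After reflection the sides of the control section matched less well than those of the KO, with correlations of 0.79 and 0.96 between the smoothed maps. Whether both sections lie at the same rostrocaudal level was not tested, which bears on every position and on every value of KO over control.

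**Figure D2:**
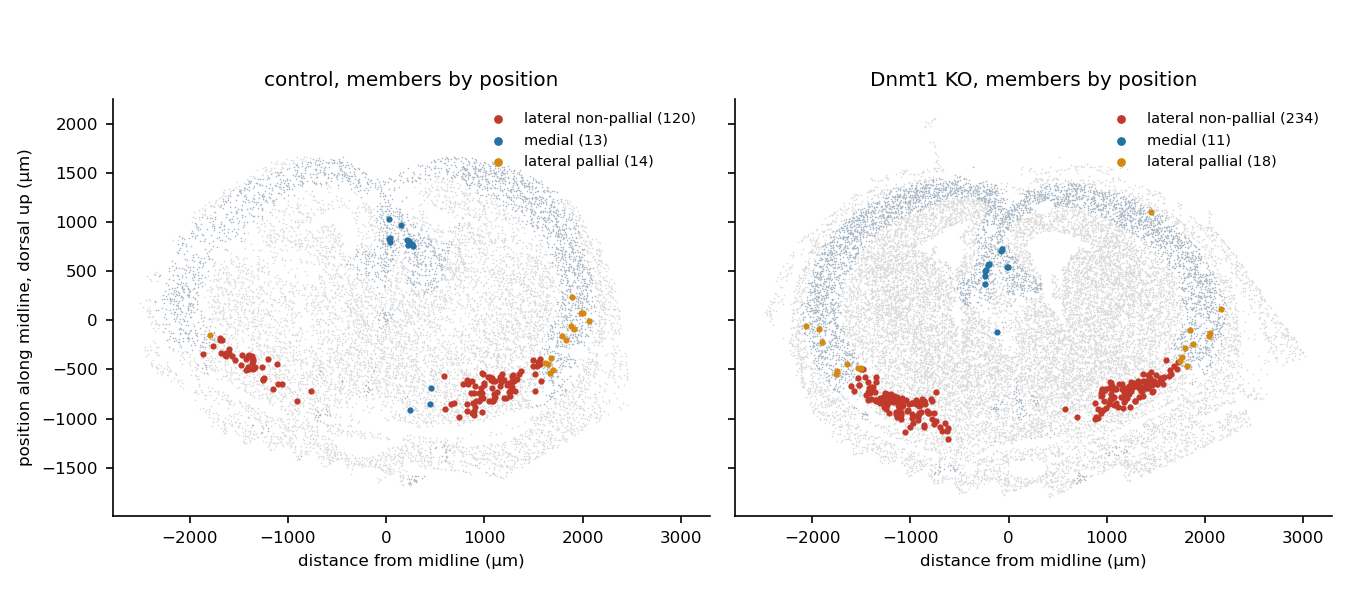
Positions of members in the control and the *Dnmt1* KO section, with the distance from the midline (horizontal axis, µm) against the position along it, dorsal up (vertical axis, µm). Grey points are 1 in 5 of the kept cells, taken in file order, blue-grey those in pallial neighbourhoods, and coloured points the members; the 120 and 234 members at the lateral position outside the pallium form a ventrolateral band on both sides.

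A minority of members went against the name subcortical. In pallial neighbourhoods lay 24 control members (16.3%, 10.7 to 23.3) and 28 KO members (10.6%, 7.19 to 15.02), fewer in proportion than among other kept cells (25.8% and 22.7%). They formed 2 sets. One was medial: 13 control and 11 KO members lay within 500 µm of the midline, 10 of them in a pallial neighbourhood in each section. All were on 1 side of the fitted midline, but some lay close to it, at 28.8 µm in the control and -0.8 µm in the KO. Along the midline (dorsal positive) control members lay at 759.6 µm or above, except those at -686.9, -849.8 and -913.7 µm. KO members lay at 368.6 to 723 µm, except 1 at -114.5 µm. All are pooled in the medial values below. The other set was lateral pallial, with 14 and 18 members at a median of 1814 and 1805 µm from the midline. Its hemispheres held 13 and 1 members in the control and 10 and 8 in the KO.

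The rule genes by position describe the choice of members and support no difference between positions. Medial members carried *Epha6* at 25894 counts per 1000000 transcripts (CPM; here and below per 1000000 transcripts of panel genes other than *Elfn1*, *Epha6* and *Sertm1*) in the control and 23646 in the KO, against 14268 and 9528 in the band, with intervals that overlapped in the control. Their *Elfn1* was at 12330 and 3814 CPM, against 31390 and 22934 in the band. The pair of *Epha6* with *Sertm1*, without *Elfn1*, made up 6 of 13 and 9 of 11 medial members and 12 of 120 and 14 of 234 members of the band. In lateral pallial members *Elfn1* was at 28027 and 16925 CPM and *Epha6* at 13453 and 8642, all with intervals that overlapped those of the band.

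*Fezf2*, a factor of deep-layer cortical neurons, was at 56720 CPM in control medial members (41526 to 75657) and 44241 in the KO (33594 to 57192). In the band it was at 272 and 150 CPM, from 2 and 5 transcripts. Other medial cells, taken at any height and in or out of pallial neighbourhoods, carried 7743 and 9420 CPM, below both intervals of the medial members. Most medial members lay in pallial neighbourhoods, so this comparison, and that of *Bcl11b* below, can also hold a difference of place. Cells close to the medial members were not compared. In lateral pallial members *Fezf2* was at 0 and 1080 CPM (upper bounds 4136 and 3157), below the 15777 and 14733 of other lateral pallial cells. *Tbr1*, which marks early-born glutamatergic neurons of the pallium, was at 36991 and 36613 CPM in medial members, 41480 and 42492 in lateral pallial members and 4620 and 4148 in the band. Other cells at the position of the band carried 3006 and 3338 CPM, below both band intervals (3200 to 6456 and 3485 to 4901). Other lateral pallial cells carried *Tbr1* at 42335 and 47034 CPM, within the intervals of the members there. *Bcl11b*, another deep-layer factor, was higher in medial members than in other medial cells by log2 ratios of 2.99 and 2.45, from 14 and 23 transcripts. The glutamate transporter *Slc17a7* followed the same order, with 9864 and 4577 CPM in medial, 10090 and 10443 in lateral pallial and 272 and 150 in band members. Since the pallial call used *Tbr1*, *Fezf2* and *Slc17a7* of the surrounding cells, the part of transcripts assigned to the wrong cell in these levels was not tested.

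*Nts*, the precursor of neurotensin, was at 5605 CPM in control lateral pallial members (1820 to 13081) and 17285 in the KO (12744 to 22917), against 383 and 466 in other lateral pallial cells. These transcripts came from 3 of 14 and 6 of 18 cells. In the band 6 of 120 and 13 of 234 members carried *Nts*, at 3261 and 1623 CPM. *Nts* was thus strong in few members and not seen in most. *Gad1* did not agree between sections at this position, with 23543 CPM in the control (14573 to 35987) and 4321 in the KO (2233 to 7548).

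**Figure D3:**
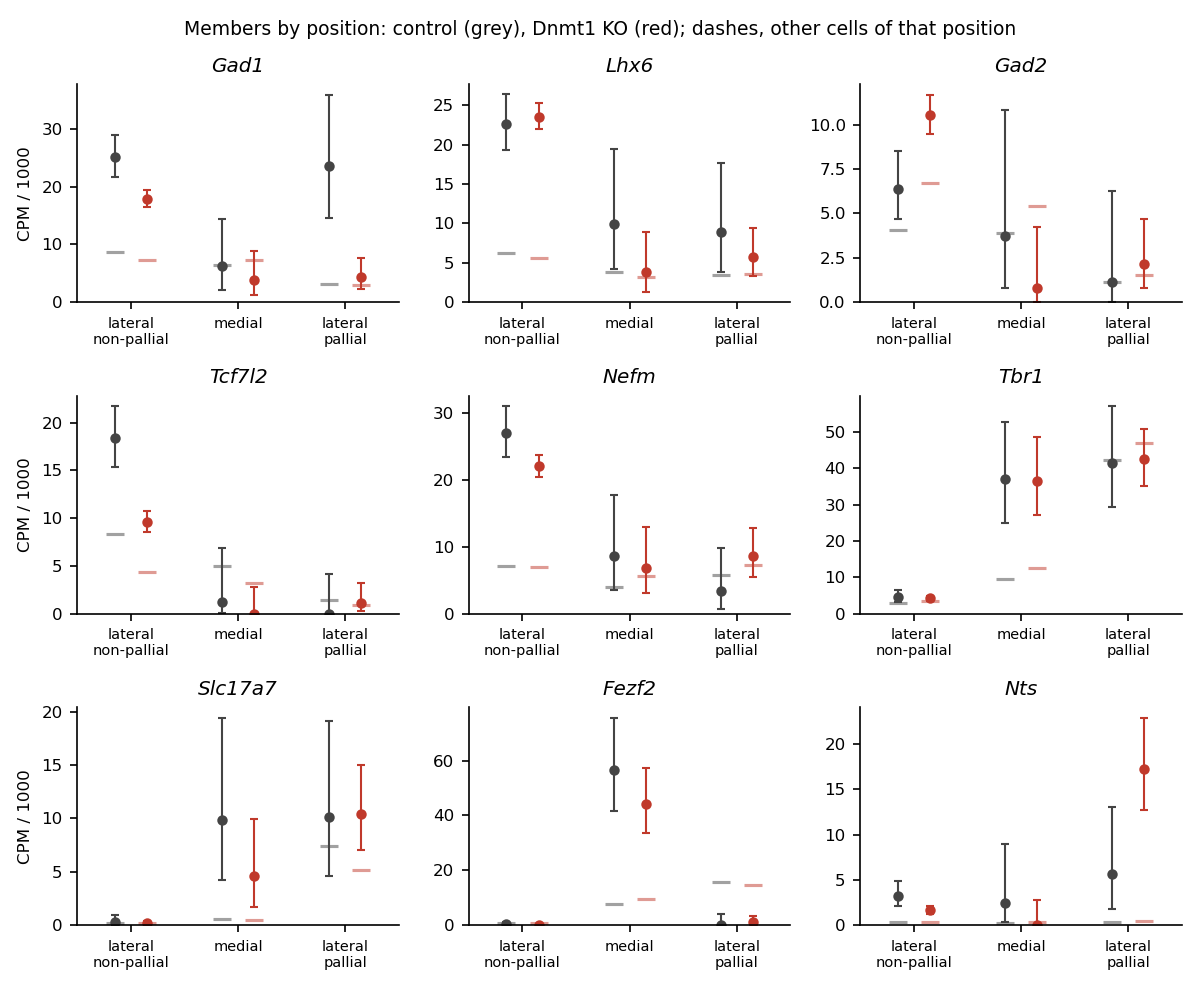
Level of 9 genes in members by position (vertical axis, CPM divided by 1000) in the control (grey) and the KO (red), with exact Poisson 95% intervals; horizontal dashes give the other kept cells of the same position. *Gad1*, *Lhx6* and *Nefm* are highest in the band among KO members. In both sections *Fezf2* is near 0 in the band, and *Tbr1* and *Slc17a7* are lower there than in medial and lateral pallial members.

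Most members of the band had transcripts of GABA genes. *Gad1*, which makes GABA, was at 25139 CPM in control band members (21647 to 29035) and 17944 in the KO (16533 to 19443). Other cells of that position, which can include tissue outside the brain, carried 8697 and 7289 CPM. Against the non-members among their 20 nearest cells, all members together had median log2 ratios over 3 GABA genes of only 0.30 and 0.03. Every cell was also thinned to 25 transcripts, to set shares of cells side by side. *Gad1* or *Gad2* was then present in 53.9% of control band members (44.4 to 63.2) and 50.4% of KO band members (43.8 to 57.0), and unthinned in 80.0% and 94.0%. In microglia-marker cells these genes were seen in 6.86% and 6.02% after thinning, so both intervals of the band lay above that background. Median depth was 59.5 and 133 transcripts in the band and 50 and 128 in microglia-marker cells. The glutamate transporters *Slc17a6* or *Slc17a7* were seen in 5.22% and 5.56% of thinned band members (unthinned 10.8% and 15.4%) against 1.29% and 2.14% of microglia-marker cells. Before thinning, 91 of 120 and 192 of 234 band members had GABA genes (*Gad1*, *Gad2* or *Slc32a1*) without these transporters, and 2 and 3 had the reverse. Both kinds were seen in 11 and 33 band members, and neither in 16 and 6. *Slc17a6* was also higher in band members than in other cells of that position. It was at 1495 CPM (746 to 2675) and 1773 (1350 to 2288), against 684 and 925.

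*Lhx6*, the MGE factor, was at 22693 and 23595 CPM in band members, with overlapping intervals and against 6261 and 5537 in other cells of the position. It was present in 43.5% and 41.5% of thinned band members (unthinned 60.8% and 83.8%), against 4.14% and 3.34% of microglia-marker cells. *Tcf7l2*, a Wnt pathway factor known from thalamus and other caudal regions, was at 18345 and 9618 CPM. Other cells of the position carried 8292 and 4395 CPM, below both band intervals. However, the *Tcf7l2* share of thinned band members, 20% and 15.4%, overlapped that of microglia-marker cells, 17.0% and 14.0%. Its presence in members therefore cannot be told from background by this share. Unthinned, *Tcf7l2* was seen in 37.5% and 41.0% of band members and 29.8% and 46.4% of microglia-marker cells.

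The members of both sections were then set against all other kept cells of their section. With at least 10 counts in members of each section 154 genes could be counted, the 7 rule genes left out. Of these, 51 were at least 2-fold higher in members in both sections (33.1%) and 8 at least 2-fold lower (5.19%). The median log2 ratio over the 154 genes was 0.85 in the control and 0.68 in the KO. A minimum of counts in members can favour genes that are high in them, but its part in these medians was not tested. With no minimum other than 1 count, 68 of 400 genes were 2-fold higher in both sections. The ratio had the same sign in both sections for 142 genes. Cells are compared here with the rest of the section they were chosen from, so these counts describe the members and test nothing.

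The 15 genes with the highest ratios in both sections included receptors and channels. *Gpr165*, an orphan G protein-coupled receptor, was at 1766 CPM in control members (1009 to 2867) and 2811 in KO members (2299 to 3402), against 262 and 337 in other cells, for log2 ratios of 2.75 and 3.06. *Tacr1*, the substance P receptor, was at 2428 and 2543 CPM against 427 and 434. *Chrm3*, a muscarinic acetylcholine receptor, was at 2097 and 1874 CPM against 349 and 397. *Adrb1*, an adrenergic receptor, was at 1766 and 1820 CPM against 373 and 270. *Asic4*, of the acid-sensing channel family, was at 1214 and 1231 CPM against 235 and 214.

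Of the others named, *Nts* had log2 ratios of 3.44 and 3.08, from 10 and 19 members. *Stxbp6*, a syntaxin-binding protein, was at 2648 and 4122 CPM against 438 and 480. *Adgra1*, an adhesion receptor, was at 2979 and 1874 CPM against 402 and 377. *Epha10*, an Eph receptor without kinase activity, was at 1214 and 990 CPM against 174 and 182. *Olfm3*, a secreted olfactomedin, *Brinp3* and the anchoring protein *Sphkap* had log2 ratios from 2.19 to 2.61. *Lhx6* was at 20194 CPM (17374 to 23342) and 21575 (20111 to 23117) against 5121 and 4645. Each of these was high in the pooled members of both sections, most of which lay in the band. *Gpr165* and *Stxbp6* gave 0 transcripts in medial and in lateral pallial members of both sections. In KO lateral pallial members their upper bound was 1328 CPM, against 3156 and 4629 in the KO band. *Tacr1*, *Olfm3*, *Epha10*, *Asic4* and *Adgra1* gave 0 transcripts in medial members. *Sphkap* was higher in lateral pallial members (13453 and 9003 CPM) than in the band (7882 and 5500).

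Of the 5 genes with the lowest ratios, *Igf2*, a growth factor of mesenchyme and vessels, was at 1545 and 1258 CPM in members against 60886 and 38266 in other cells, log2 ratios of -5.30 and -4.93. *Top2a*, used in mitosis, had ratios of -3.23 and -4.06, and *Ccnd2*, a G1 cyclin, -1.79 and -2.37, though 70 of 147 and 113 of 263 members carried *Ccnd2*. *Igfbp5* had -2.88 and -2.40, and *Sox9*, a glial and progenitor factor, -2.13 and -2.70. All 3 counted genes of the progenitor and cell cycle list were at least 2-fold lower in both sections.

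Of GABA genes 2 of 3 counted were 2-fold higher in both sections (*Gad1* by 1.72 and 1.33 on the log2 scale, *Slc32a1* by 1.31 and 1.01), with list medians of 1.31 and 1.01. Of the MGE regulators 2 of 5 were, *Lhx6* and *Sox6*, with medians of 1.28 and 0.86. *Erbb4*, the neuregulin receptor of migrating interneurons, had 0.85 and 0.86. *Etv1* was not counted because of 9 control transcripts, and had 1.90 and 2.71. Of the striatal projection list 3 of 15 measured genes could be counted. *Meis2* had -0.23 and -1.14 and *Ebf1* -0.75 and -1.39, and the orphan receptor *Gpr149* alone was higher, by 1.53 and 1.52. *Penk* and *Tac1*, peptides of striatal neurons, gave 0 transcripts in control members and 11 and 4 in KO members.

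Of the cortical projection list 1 of 9 counted genes was 2-fold higher in both, *Pou3f1* (1.81 and 2.11), with medians of 0.00 and -0.67. Of the CGE list, the caudal source of interneurons, 0 of 2 counted were, with medians of 0.04 and -0.60: *Prox1* had -0.55 and -1.50 and *Nr2f2* 0.62 and 0.30. Neither vesicular glutamate transporter counted was 2-fold higher, with 0.24 and 0.40 for *Slc17a6* and 0.35 and -0.06 for *Slc17a7*. *Chat*, the enzyme of acetylcholine synthesis, gave 5 and 8 transcripts, and *Th*, of dopamine synthesis, 2 and 6; no gene of their monoaminergic and cholinergic list was counted, and the list summed to 1876 and 1312 CPM against 1752 and 1974. Markers of other cells were low. Astroglial genes summed to 1324 and 2222 CPM in members against 12493 and 11419 in other cells, endothelial genes to 993 and 857 against 6077 and 6330, microglial genes to 1214 and 1312 against 3310 and 2406, mural genes to 772 and 589 against 5146 and 5349, and connective tissue genes to 662 and 964 against 28505 and 25317. The oligodendrocyte lineage list had 2 counted genes and medians of -0.44 and -1.03. Of the Cajal-Retzius list, 0 of 2 counted genes were 2-fold higher in both sections. *Reln* had 0.37 and -0.04, and *Cxcl14* 1.38 and 0.44.

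Of the receptors of peptides and modulators, 5 of 7 counted genes were 2-fold higher in both sections, with medians of 1.72 and 1.81. They were *Tacr1*, *Crhr1* (receptor of corticotropin-releasing hormone, 2.12 and 1.81), *Avpr1a* (vasopressin receptor, 1.95 and 2.20), *Adra1b* (adrenergic receptor, 1.72 and 2.98) and *Chrna2* (nicotinic receptor subunit, 1.36 and 1.76). Of the glutamate receptor list, which holds possible partners of ELFN1, 3 of 4 counted genes were, among them *Grik1* (1.94 and 1.89) and *Grin3a* (1.43 and 1.56). *Grm8*, of the receptor group that ELFN1 is known to bind, was not counted because of 7 control transcripts, with 18 in the KO. Of the guidance list 2 of 4 were, *Epha10* and *Epha5* (1.52 and 1.61). Of the other lists, 2 of 2 counted subcortical regional regulators (*Tcf7l2* and *Trpc4*), 1 of 2 neuropeptide precursors (*Nts*), 1 of 3 cadherins (*Pcdh8*) and 0 of 1 potassium channels were 2-fold higher in both. These shares are to be read against 33.1% of all counted genes.

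The cells around the members carried much of this profile. Against the non-members among their 20 nearest cells (2027 cells in the control, 3026 in the KO), only *Nts* (1.02 and 1.10) and *Gpr165* (1.16 and 1.20) were at least 2-fold higher in members in both sections, and 0 genes were 2-fold lower in both. The median log2 ratio over the 154 genes was 0.19 and 0.13. *Lhx6* stood at 0.53 and 0.50 above the neighbours and *Sphkap* at 0.38 and 0.20. *Gad1* had 0.34 and -0.00, and *Tcf7l2* was lower in members than in their neighbours, with -0.62 and -0.43. The neighbours of band members were themselves high in *Adra1b*, with log2 ratios of 2.07 and 2.14 over all other cells, in *Stxbp6* (2.05 and 2.31) and *Tcf7l2* (2.29 and 1.98). Even *Elfn1*, which chose the members, was at 6641 and 4160 CPM in the neighbours against 1076 and 602 in all other cells. The part of transcripts assigned to a neighbouring cell in these values was not tested.

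**Figure D4:**
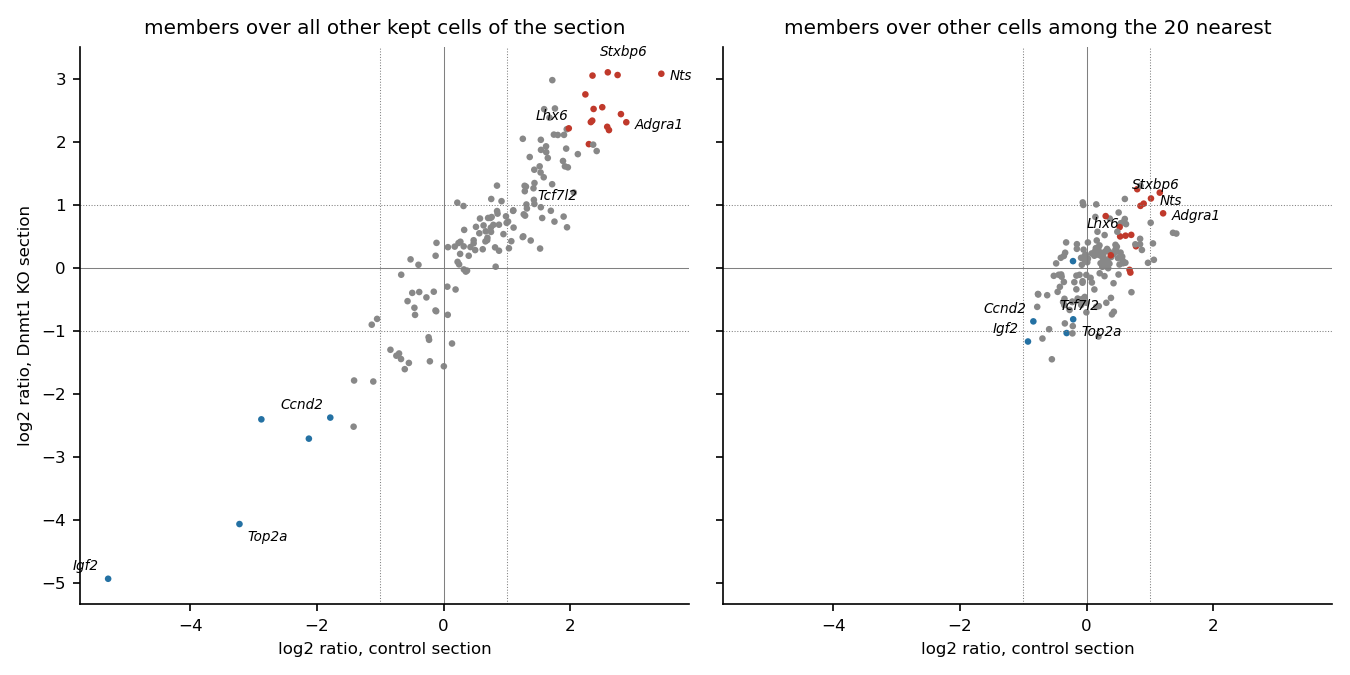
Log2 ratio of CPM in members over other cells for 154 genes, in the control (horizontal axis) and the KO section (vertical axis), with all other kept cells as reference on the left and the non-members among the 20 nearest cells on the right. Red points are the 15 genes highest and blue points the 5 lowest against all other cells, and dotted lines mark 2-fold; 51 genes lie past the upper lines on the left and 2 on the right.

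Other cell classes were set up for comparison, by counts and without a share limit, except for the *Irs4*, *Calcr* and *Baiap3* cells. Cells with at least 2 *Lhx6* transcripts, a *Gad* gene and no *Sst* lay near the band in part. They numbered 1454 and 8586, members left out, and 21.9% and 16.6% of them were within 50 µm of a band member. They were taken from all positions, 72.1% and 68.0% of them at the position of the band, so the comparison also holds a difference of position. Against them, band members were 2-fold higher in 22 of 127 genes in both sections and 2-fold lower in 3: *Ccnd2* (-1.58 and -2.57), *Sp9* (-1.45 and -2.58) and *Dlx1* (-1.30 and -1.15). *Sp9* and *Dlx1* are factors of young GABA neurons. The highest were *Gpr165* (2.17 and 2.24), *Epha10* (2.53 and 1.87), *Tacr1* (2.03 and 1.82) and *Adrb1* (1.71 and 2.45).

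Cells with at least 2 *Sst* transcripts numbered 278 and 1825, and 29.5% and 35.5% of them were within 50 µm of a band member. Of these *Sst* cells 11 (3.96%, 1.99 to 6.97) and 22 (1.21%, 0.757 to 1.82) met the 3-gene part of the rule. Members were 0.266% (0.225 to 0.313) and 0.260% (0.229 to 0.293) of all kept cells, so *Sst* cells met this part more often. *Sst* cells held a median of 46 and 192 transcripts, against 34 and 109 in all kept cells. The part of depth and of position in this difference was not tested. Against *Sst* cells the band members were lower in *Npy*, the peptide often made with somatostatin (-2.60 and -2.91), and in *Ptprm* (-1.64 and -2.05). The *Sst* cells were taken from all positions, 26.6% and 24% of them lateral pallial, whereas band members were by definition outside the pallium. Band members were higher than these *Sst* cells in *Gpr165* (3.46 and 2.56), *Pou3f1* (1.90 and 2.10) and *Tcf7l2* (1.57 and 1.83). The *Irs4*, *Calcr* and *Baiap3* cells, 100 and 409, were mostly medial (71.0% and 92.7%), and 0% and 0.244% of them were within 50 µm of a band member. Their distance to the 13 and 11 medial members was not measured.

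Control and KO members were finally compared with each other. Of the 154 genes, 7 were at least 2-fold higher in KO members (4.55%) and 15 at least 2-fold lower (9.74%), with a median log2 ratio of -0.00. For 16 of these 22 genes the counting interval was clear of 0. In the other kept cells of the same sections 8 of the 154 genes were 2-fold higher and 4 lower, 21 of the 22 had the same sign there and 6 of them were past 2-fold. In the neighbours of members all 22 had the same sign and 7 were past 2-fold. A difference of genotype and one of section or run cannot be told apart.

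*Cd24a*, a surface glycoprotein of young neurons, was at 7062 CPM in control members (64 transcripts) and 27544 in KO members (1029 transcripts), a log2 ratio of 1.96 (1.52 to 2.43) against 2.15 in other cells. *Nkain3*, which interacts with the sodium pump, had 1.37 against 1.38 and *Gpr161*, a receptor of the primary cilium, 1.30 against 1.398. *Ackr1*, a chemokine receptor, had 1.21 (0.17 to 2.37) against 0.75, and *Dlx1* 1.31 (0.32 to 2.42) against 0.86. For these 5 genes the value in other cells lay within the interval of the members.

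*Nxph1*, a neurexin ligand of GABA interneurons, was at 6400 CPM in control members (58 transcripts) and 1767 in KO members (66 transcripts), a log2 ratio of -1.86 (-2.60 to -1.11) against -0.55 in other cells and -0.72 in the neighbours. In the hemispheres it was at 5722 and 8691 CPM in the control and 1394 and 2138 in the KO, which do not overlap. *Ptprm*, a receptor phosphatase of cell contacts, was at 9711 and 3025 CPM, -1.68 (-2.26 to -1.10) against -0.82 in other cells and -0.78 in neighbours, and its hemispheres, 10156 and 8209 against 3217 and 2833, did not overlap. *Adra2a*, an adrenergic receptor, had -1.79 (-2.72 to -0.86) against -1.04 in other cells and -1.37 in neighbours. *Olig2*, of the oligodendrocyte lineage, had -1.46 (-3.02 to 0.15) from 12 and 18 transcripts, an interval that includes 0. Hemispheres that did not overlap between the sections were seen for 84 of the 154 counted genes (54.5%) and for 17 of the 22 past 2-fold. This therefore does not mark out *Nxph1* or *Ptprm*. The hemispheres are parts of 1 section and not replicates of a genotype.

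*Fezf2* was lower in KO members by -1.58 (-2.36 to -0.80), against -0.02 in other cells and -1.04 in the neighbours. Of its transcripts, medial members held 46 of 48 (control) and 58 of 66 (KO). The hemispheres held 48 and 0 transcripts in the control and 5 and 61 in the KO. Medial members were 8.84% of control and 4.18% of KO members. The part of this share in the lower value was not tested. Within the medial set the intervals of both sections overlapped, and in the band the log2 ratio was -0.85 from 2 and 5 transcripts. In the band alone 7 of 130 counted genes were 2-fold higher in the KO and 14 lower, 16 of which were among the 22, with *Nxph1* at -1.64, *Ptprm* at -1.63 and *Adra2a* at -1.97. *Lhx6* had a ratio of 0.10 (-0.21 to 0.41) and did not differ beyond counting error between control and KO members.

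**Figure D5:**
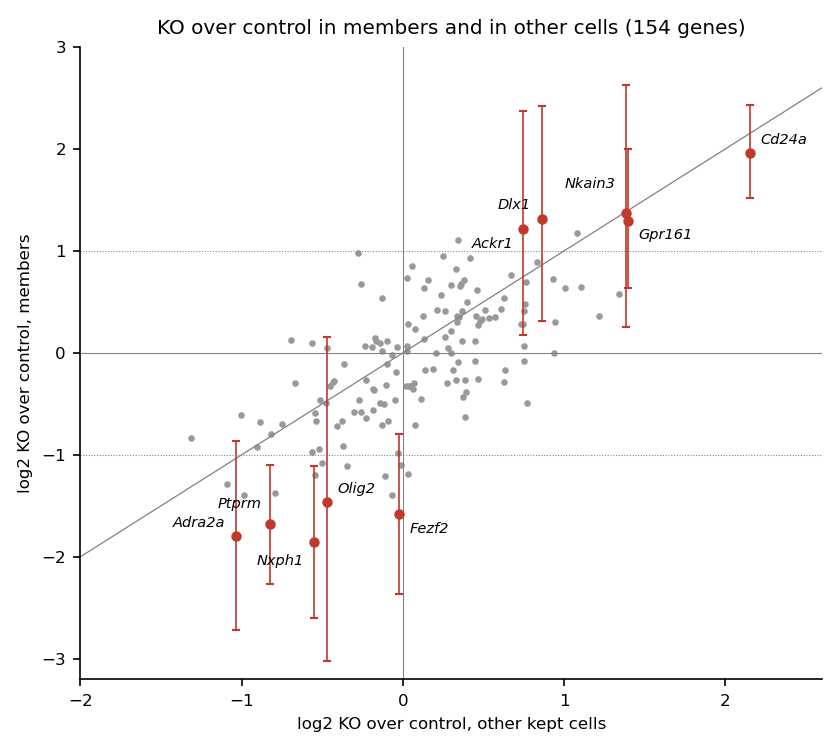
Log2 ratio of CPM, KO over control, in members (vertical axis) against other kept cells (horizontal axis) for 154 genes; the line marks equal ratios and dotted lines 2-fold. Red points are the 5 highest and 5 lowest genes in members with their counting intervals; *Cd24a*, *Gpr161* and *Nkain3* lie near the line, and *Nxph1*, *Ptprm* and *Fezf2* below it.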

How the data were processed

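MERFISH (MERSCOPE, Vizgen) was run on 1 section per genotype. The authors used the instrument's decoding and segmentation, whose settings are not given in the sources used here. The deposited tables hold raw counts of decoded molecules per cell and gene, the deposited metadata hold each cell's position, its volume and the summed signal of the DAPI and PolyT stains, not normalized between sections, and a further deposited table lists every molecule. Blank barcodes were left out, and cells with at least 20 transcripts were kept. Members and gene lists were chosen with earlier results of these data known.

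CPM are counts summed over cells, per 1000000 transcripts of panel genes other than *Elfn1*, *Epha6* and *Sertm1*, with no pseudocount. Genes with at least 10 counts in members of each section were counted. With 1 section per group no test was run. Intervals are exact Poisson or Clopper-Pearson 95% intervals of counting error, and that of a ratio pairs opposite ends of both. Distances take the file's coordinates as µm. The 500 µm limit, the 3 positions and the 50 µm distance were set after the maps had been seen. Genes named are the 15 highest and 5 lowest of members over other cells by the less extreme section, the 5 highest and 5 lowest of KO over control among genes at or above the median mean CPM, and examples from the lists; *Bcl11b*, *Nefm* and the genes by position or against other classes were chosen after their values were seen. Some genes that the rule names are not reported here. For shares of cells, each cell was thinned to 25 transcripts once, and 5 control members below that were left out. No doublet caller was run; leaving out the 1% largest cells was an alternative. Scripts (Python 3.11.15, NumPy 2.4.6, SciPy 1.17.1, pandas 2.3.3) were checked on simulated data.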

Additional observations from a re-analysis of the deposited data

How the results depend on the processing

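Of 57 values under alternatives, 39 stayed within the counting interval or within 1.5 times the count, and 18 moved. Some of the 39 could not move. Thinning the KO left the control members and their pallial share unchanged. A minimum of 10 transcripts left the same 147 and 263 members, so the 22 genes between KO and control members were fixed. Under that minimum the member share changed only through the number of kept cells. The log2 KO over control of the member share (-0.04) moved to 0.53 with a minimum of 10 transcripts, -1.22 with 50, 1.15 with a sum of at least 4, -1.67 with a share of at least 5%, -0.94 with the KO thinned to the control depth, and between -0.48 and 0.67 over single hemispheres. Members in pallial neighbourhoods moved to 2.44% in 1 control hemisphere and to 3.85% in the KO with a share of at least 5%. The 51 of 154 genes higher in members became 29 of 87 with a sum of at least 4, 26 of 75 with a share of at least 5%, 32 of 102 with the KO thinned, 15 of 45 in the lowest pair of hemispheres and 2 of 154 against the 20 nearest cells. The 22 of 154 genes past 2-fold between KO and control members became 10 of 75 with a share of at least 5%, 11 of 102 with the KO thinned, 8 of 45 in the lowest pair of hemispheres and 119 of 400 with no minimum other than 1 count. Except against the nearest cells and with no minimum, these counts fell with the number of genes that passed the minimum of counts; otherwise the cause was not tested. With medial limits of 300 and 700 µm, chosen after seeing the data, members at the lateral position outside the pallium were 83.0% and 78.9% in the control and 89.0% and 86.3% in the KO. No paired analysis was possible because each group is 1 section. The depth of the control section, with 9593 transcripts in its members, sets what can be counted.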
